A study of Mus musculus with 26 samples.

Results

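The mRNAs of the cytosolic ribosomal proteins were followed through ribosome purification from striatal neurons and across saline and cocaine self-administration. The genes were chosen by name alone, with no measured value: symbols made of Rpl or Rps and a number, with or without a closing letter or digit, and Rplp0, Rplp1, Rplp2 and Rpsa. Rows marked as pseudogenes by their symbol and the Rps6k kinases were left out. The rule found 85 genes among 31977, of which 52 are named for the large and 33 for the small ribosomal subunit. Of the 85, 80 (47 large-subunit and 33 small-subunit) had enough counts to be tested. The other 5 were Rpl3l, Rpl10l, Rpl26, Rpl32l and Rpl39l.

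Each cytosolic ribosome carries a single copy of nearly every one of these proteins, so their mRNAs are among the most abundant in growing cells and are usually regulated as a block. Most begin with a run of pyrimidines at the start of transcription (a terminal oligopyrimidine, or TOP, sequence), through which the kinase mTOR and the RNA-binding protein Larp1 control their translation. In neurons these mRNAs are found in axons and dendrites as well as in the cell body. Rpl10a, a protein of the large subunit, is the handle of the purification: in translating ribosome affinity purification (TRAP) it is made as a fusion with EGFP in a chosen cell type, and antibodies against EGFP pull down the polysomes of those cells.

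All mice were adult Drd2-TRAP CP101 animals, of mixed FVB/N and Swiss Webster origin bred for at least 9 generations with C57BL/6, and carried the Drd2-EGFP/Rpl10a transgene. The transgene follows the Drd2 promoter, which drives expression in indirect-pathway medium spiny neurons and also in cholinergic interneurons, and it adds Rpl10a coding sequence that cannot be told apart in gene counts from the mouse's own Rpl10a. Every group therefore carried the tag, and no group lacked it. Mice self-administered saline or cocaine intravenously in long-access sessions. Immunopurified RNA from dorsal striatum came from mice that took saline (3 libraries), cocaine without escalating intake (nonescalating, 4), cocaine with escalating intake (escalating, 2), saline followed by withdrawal (5) and nonescalating cocaine followed by withdrawal (9). Unpurified input RNA came from 1 library each of the saline, nonescalating and saline withdrawal conditions. The labels do not say whether each library is a separate animal or a pool, so the spread behind a p-value is that between libraries and may be technical. They do not give the length of withdrawal either.

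Counts assigned to genes ran from 3279457 to 19122303 per library, of which the 85 genes held 9045 to 79358, or 0.216% to 0.529%. Library numbers in the titles form 2 sets, A and B, and every library of set B belongs to a withdrawal condition. Saline withdrawal set A replicate 2 was put in set A by its library number, but its table lists 32531 genes, as those of set B do, and its 3279457 gene counts are near the depth of set B. Reads outside annotated genes made up 21.2% to 70.7% of the uniquely aligned reads of immunopurified libraries and 27.3% to 31.6% of those of inputs. They exceeded 50% in 5 libraries, all of withdrawal groups (saline withdrawal set A replicates 1 and 2, nonescalating withdrawal set A replicate 1 and set B replicates 3 and 4). Drd2 stood at 804 to 8850 CPM (gene counts scaled to TMM-adjusted library size) in immunopurified libraries and 411 to 550 CPM in inputs. Drd1, the receptor of direct-pathway neurons, stood at 14.02 to 63.0 against 243 to 320 CPM. Summed markers of astrocytes (132 to 459 against 1920 to 3035 CPM), of oligodendrocytes (99.0 to 566 against 1444 to 2140 CPM) and of microglia (0.717 to 36.5 against 30.3 to 60.7 CPM) were lower after purification in most or all libraries, whereas those of endothelial cells were at 46.1 to 3776 against 35.2 to 270 CPM. Of the microglial list, C1qa, C1qb and Cx3cr1 were at 0 in 16, 8 and 7 of the 23 immunopurified libraries, and every other marker was at 0 in at most 3. The part of these cells and reads in the results below was not tested except where values are given. In bulk RNA, fewer cells of a type and less RNA per cell cannot be told apart.

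The sequences around the annotated transcription starts show where runs of pyrimidines lie in some of these genes. They are shown for Rpl10a, for Rplp0 and Rps6, which stand for the ribosomal stalk and the mTOR pathway, and for Rps12, Rps15 and Rps15a, whose levels differed between purified and input RNA. Each runs from 40 bases before to 20 bases after the first transcribed base of the RefSeq entry (GRCm38.p6), 5′ to 3′ on the gene's strand. Capitals mark a gene's longest run of 8 or more pyrimidines that reaches within 10 bases of that start.
Rpl10a (chr17:28328431-28328490, plus strand): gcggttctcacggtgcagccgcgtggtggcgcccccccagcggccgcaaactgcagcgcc
Rplp0 (chr5:115559427-115559486, plus strand): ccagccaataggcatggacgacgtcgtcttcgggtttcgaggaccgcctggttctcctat
Rps6 (chr4:86857348-86857407, minus strand): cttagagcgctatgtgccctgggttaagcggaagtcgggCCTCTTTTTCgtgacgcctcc
Rps12 (chr10:23787190-23787249, minus strand): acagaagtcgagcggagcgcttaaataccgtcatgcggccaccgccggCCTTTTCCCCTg
Rps15 (chr10:80292391-80292450, plus strand): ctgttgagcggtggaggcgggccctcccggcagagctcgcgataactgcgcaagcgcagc
Rps15a (chr7:118116128-118116187, minus strand): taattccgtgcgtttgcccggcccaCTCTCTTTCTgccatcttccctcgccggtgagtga
In Rps6 the run of 10 pyrimidines straddled the annotated start, in Rps12 a run of 11 began 8 bases after it, and in Rps15a a run of 10 began 15 bases before it. Rps15a also had a shorter run that meets the same rule, tcttccctc, left in lower case, which straddled the annotated start. Rpl10a, Rplp0 and Rps15 had no such run in this window. GENCODE, a second annotation, has Rpl10a and Rplp0 begin at the same base as RefSeq. It puts the first base of Rps6, Rps12, Rps15 and Rps15a outside the window shown. For Rps15 that base is 80292453, after the last base of the window. What is said of runs in Rps6, Rps12, Rps15 and Rps15a therefore holds for the RefSeq start only.

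A promoter entry was found for 64 of the 85 genes, among 27025 genes in all. A pyrimidine run of at least 8 bases reached within 10 bases of the start in 28 of the 64 (43.8%), against 13.5% of all promoters. With a window of 20 bases on each side the shares were 48.4% and 20.8%. Within 30 bases on each side, the TOP-like hexamer CTTTCC was on the gene's strand in 15.6% of ribosomal protein genes and 2.85% of all promoters, CTTTTC in 7.81% and 2.09%, and CTCTTT, which can overlap both, in 15.6% and 2.21%. On the opposite strand the shares were 3.12% and 2.54%, 3.12% and 2.02%, and 1.56% and 2.27%. These hexamers therefore sat on the gene's strand of the ribosomal protein genes more often than on the opposite strand. A match describes the letters in this window only.

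Purification from Drd2 neurons left the ribosomal protein mRNAs, as a block, near the level of input RNA. Rpl10a rose, with Rps12 and Rps15 of the small subunit, and Rps15a fell, while the other 76 tested genes did not pass the threshold. This comparison asked which mRNAs are carried by tagged ribosomes more or less than they are present in whole tissue, and set the 12 purified libraries of the saline, nonescalating and saline withdrawal conditions against the 3 inputs. Over the 12, the summed level of the ribosomal protein mRNAs was 3735 ± 944 CPM (SD, n = 12), and in inputs it was 3901 ± 627 CPM (SD, n = 3). By edgeR's quasi-likelihood test with Benjamini-Hochberg adjustment over 15610 genes, 4 of the 80 were called at an adjusted p under 0.05. The background was 7.38% of all genes called, 3.58% higher and 3.8% lower, so that 3 of 80 higher is near the share among all genes and 1 of 80 lower is under it. The median log2 fold change was 0.14 for the 80 and 0.16 for all genes tested, and 47 of the 80 were positive. At an unadjusted p under 0.05 there were 18 of 80 (11 higher and 7 lower), against a background of 26.3%. In simulated data this fit recovered 1% of genes changed 2-fold and 34% of those changed 4-fold. A gene that was not called is therefore not shown to be unchanged.

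**Figure D1:**
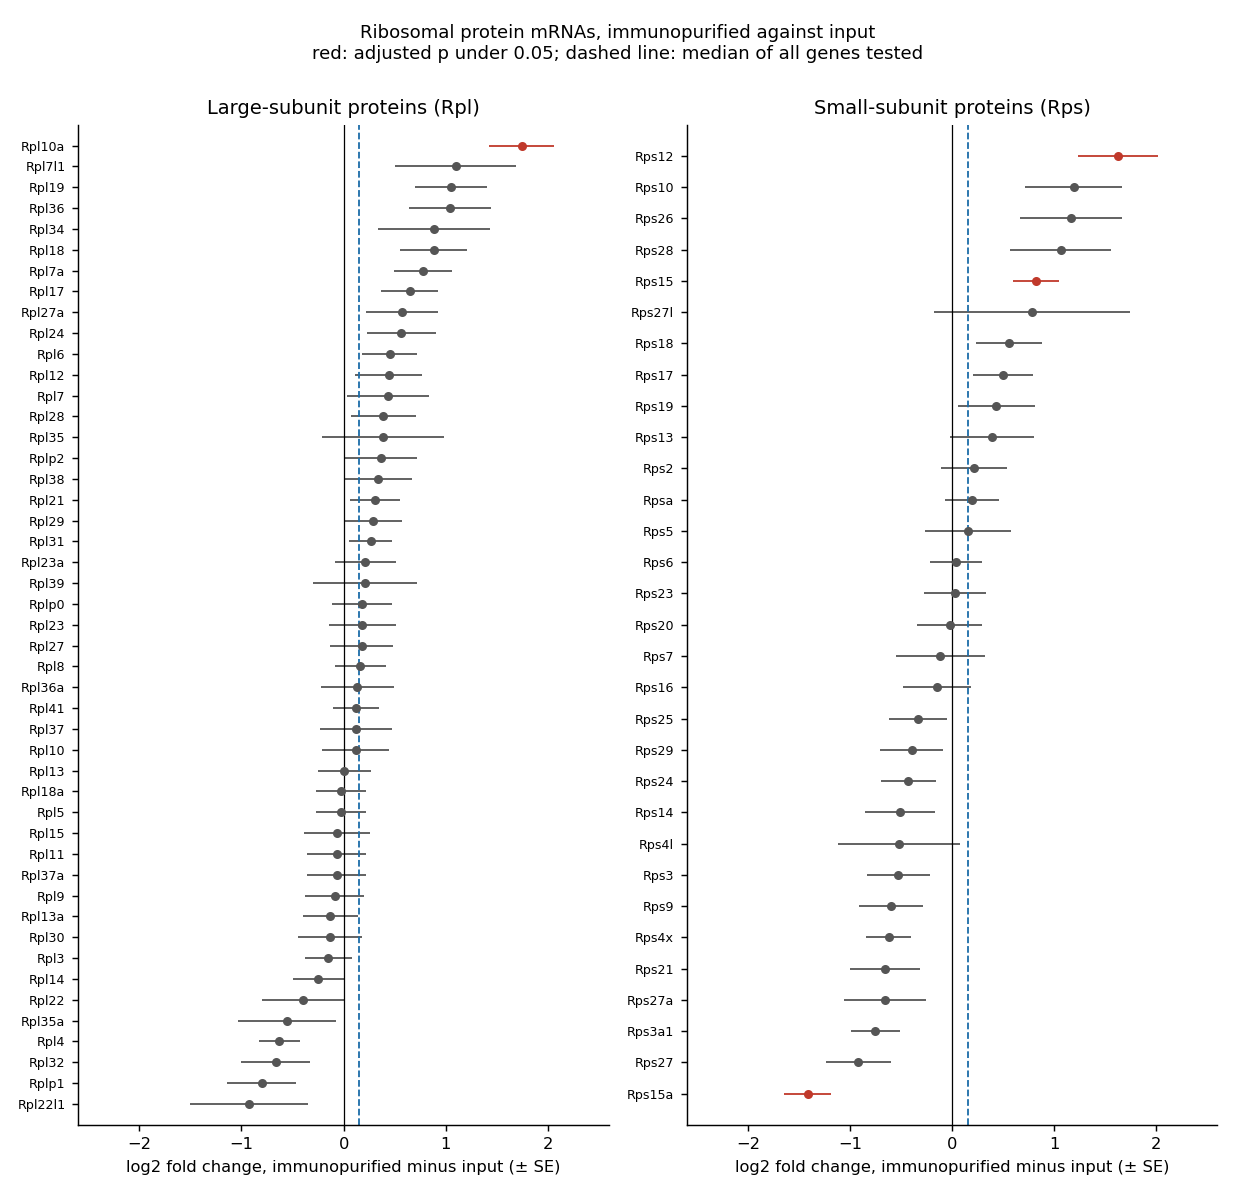
Log2 fold change (± SE) of 78 of the 80 tested ribosomal protein genes between immunopurified and input libraries, large-subunit genes on the left and small-subunit genes on the right, ordered by value. Red marks the 4 genes with an adjusted p under 0.05, and the dashed line is the median of all genes tested (0.16); the values run from -1.42 for Rps15a to 1.74 for Rpl10a.

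Rpl10a (chromosome 17, 28328471 to 28331033 of GRCm38), the gene of the tagged protein, stood at 69.6, 71.9 and 36.6 CPM in the saline, nonescalating and saline withdrawal inputs. It stood at 114, 280 and 231 CPM in the saline libraries, at 269, 352, 166 and 204 CPM in the nonescalating libraries, and at 62.5, 125, 148, 150 and 107 CPM in the saline withdrawal libraries. The values of 11 of the 12 were above every input, the exception being saline withdrawal set A replicate 1, the library with 70.7% of its reads outside genes. The log2 fold change was 1.74 ± 0.32 (SE, adjusted p = 0.00482 by edgeR). Relative to the mean of the 80 ribosomal protein mRNAs in the same library, Rpl10a lay 1.78 to 3.0 log2 units higher in the 12 immunopurified libraries and 0.57 to 1.09 higher in the inputs, and these ranges did not overlap. Of its 50-base words, 88.1% also occur in another annotated gene's transcripts. No other large-subunit gene was called.

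Rps12 (chromosome 10, 23785183 to 23787275), a protein of the small subunit's beak, was at 6.50, 4.09 and 2.95 CPM in the 3 inputs, which rest on 42, 46 and 13 counts. It was at 12.2, 20.5 and 17.6 CPM in saline, 14.7, 18.0, 17.8 and 16.2 CPM in nonescalating, and 16.3, 16.4, 7.57, 8.05 and 9.37 CPM in saline withdrawal libraries. All 12 lay above all 3 inputs. The log2 fold change was 1.62 ± 0.39 (SE, adjusted p = 0.0220 by edgeR). Rps12 was the only 1 of the 80 with every immunopurified library above every input. The share of all genes separated in this way is not given here, so this is a description only. Of its 50-base words, 90.1% also occur in the transcripts of another annotated gene, and reads that match several places were not counted to any gene.

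Rps15 (chromosome 10, 80292453 to 80294114), which sits near the decoding site, was at 110, 74.6 and 70.2 CPM in the inputs. It was at 175, 207 and 179 CPM in saline, 239, 133, 174 and 165 CPM in nonescalating, and 78.0, 110, 106, 97.0 and 86.9 CPM in saline withdrawal libraries. The saline and nonescalating libraries were all above the inputs, and those of saline withdrawal were within their range or just above, so that 8 of the 12 exceeded every input. The log2 fold change was 0.82 ± 0.22 (SE, adjusted p = 0.0382 by edgeR). 

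Rps15a (chromosome 7, 118104372 to 118116188), a core protein of the small subunit, was at 99.5, 150 and 216 CPM in the inputs of saline, nonescalating and saline withdrawal. It was at 58.4, 55.7 and 53.6 CPM in saline, 77.2, 63.4, 45.9 and 51.5 CPM in nonescalating, and 72.5, 52.6, 59.4, 64.2 and 40.9 CPM in saline withdrawal libraries. All 12 lay below all 3 inputs, and the log2 fold change was -1.42 ± 0.23 (SE, adjusted p = 0.00179 by edgeR). Rps4x and Rpl4 were also below every input in 12 of 12 libraries, with log2 fold changes of -0.62 ± 0.22 and -0.63 ± 0.20 (SE), but their adjusted p were 0.0951 and 0.0643 by edgeR. Of these, Rpl4 was at 114 to 317 CPM after purification and at 419, 437 and 327 CPM in the saline, nonescalating and saline withdrawal inputs. The share of all genes below every input in this way is not given here either.

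**Figure D2:**
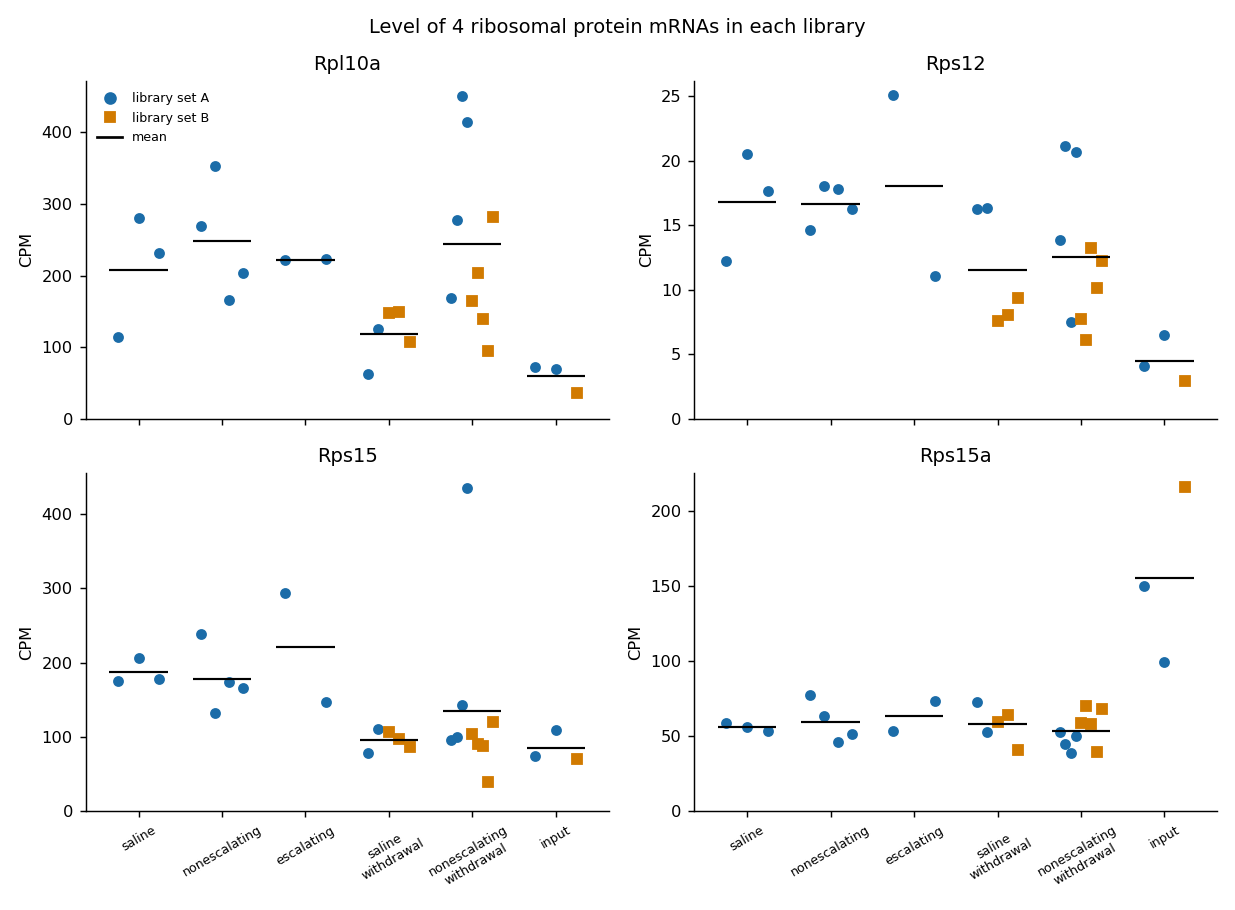
Level (CPM, axes from 0) of Rpl10a, Rps12, Rps15 and Rps15a in every library, by group, with a bar at each group's mean and the 3 inputs together on the right; circles are library set A and squares set B. All Rps12 libraries of the saline, nonescalating and saline withdrawal groups lie above the inputs, and all Rps15a libraries lie below them.

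The 4 calls differed in how far they rested on single libraries. Leaving out each of the 15 libraries in turn kept Rpl10a and Rps15a called in all 15 fits, Rps12 in 13 and Rps15 in 7. Rps12 lost its call without the nonescalating input (adjusted p = 0.127 by edgeR) or the saline input (0.0553), and 2 genes in place of 4 were then called. The count over all genes in those fits is not given here. Rps15 was no longer called after removal of the saline, the nonescalating or the saline withdrawal input, saline replicate 3 or 4, nonescalating replicate 4, or saline withdrawal set B replicate 1 or 2, with a highest adjusted p of 0.214. Within set A alone, and with a replicate block, none of the 80 was called, although Rpl10a differed by 1.70 and 1.59 (adjusted p = 0.0631 and 0.109 by edgeR). Rps12 also missed the threshold with limma voom (adjusted p = 0.0594) and without the low-count filter (adjusted p = 0.0594 by edgeR), so that 8 of 12 such alternatives called it. Rps15 also missed it without the library set term (adjusted p = 0.0510 by edgeR) and was called in 9 of the 12.

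Both subunits had members on either side of 0. Of 47 large-subunit genes, 31 were positive with a median of 0.18, and of 33 small-subunit genes, 16 were positive with a median of -0.02. Among the stalk proteins, which recruit elongation factors to the ribosome, Rplp0 changed by 0.19 ± 0.29, Rplp1 by -0.80 ± 0.34 and Rplp2 by 0.37 ± 0.35 (log2, SE), with adjusted p of 0.728, 0.150 and 0.539 by edgeR. Rpl5 and Rpl11, which form a particle with the 5S ribosomal RNA and can bind Mdm2, had values of -0.03 ± 0.25 and -0.07 ± 0.29. Rps6, the substrate of the S6 kinases, had 0.04 ± 0.25, and Rpsa, which is also known as the laminin receptor, 0.19 ± 0.26. None of these 7 passed the threshold.

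Genes that act with the ribosomal proteins gave mixed results in the same comparison. Of 3 tested ribosome components outside the naming rule, Rack1, a scaffold on the small subunit, rose by 1.24 ± 0.36 (log2, SE, adjusted p = 0.0461 by edgeR), while Fau, which encodes a ribosomal protein fused to a ubiquitin-like protein, had 0.04 ± 0.32. The fourth, Rpl36al, was not tested. Of 40 translation factors and other TOP mRNAs, none was called higher and 2 were called lower. Eif2s2, a subunit of the factor that brings the initiator tRNA, fell by 0.93 ± 0.22, and Eif4a2, an initiation helicase, fell by 0.87 ± 0.17. Of 30 ribosome assembly genes, 1 was called, Ubtf, a factor of RNA polymerase I, which rose by 1.17 ± 0.24. None of 13 regulators passed, and among them Mtor had 0.18 ± 0.22 and Larp1 0.01 ± 0.21. Of 75 mitochondrial ribosomal proteins, 1 was called, Mrpl39, which fell by 1.33 ± 0.31. The median log2 fold changes were 0.39, 0.08, 0.40, 0.17 and 0.28 for the lists in that order, beside 0.16 for all genes.

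The pyrimidine run was set beside the change after purification as a description, and no test of the difference was made. The median log2 fold change was 0.27 over the 27 tested genes with a run and 0.13 over the 32 with a promoter entry and no run. Rps15a, the 1 gene that fell, and Rps12, which rose, have a run in the windows above, and Rpl10a and Rps15, which also rose, have none there. The Rps12 run began 8 bases after the annotated RefSeq start, so it is not a TOP sequence at that start. In Rps15a the longest run lay before the start, and a shorter run straddled it, as the run of Rps6 does. The GENCODE first base of Rps12, Rps15 and Rps15a lies outside the windows. The windows therefore do not settle which of these mRNAs carry a TOP sequence.

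Levels differed widely among the ribosomal protein mRNAs when counted per length. Over the 23 immunopurified libraries the median gene had 48.9 CPM per kilobase of transcript, with a range of 4.84 to 306. The highest were Rpl41, which encodes the smallest protein of the large subunit (306 CPM per kilobase), Rps15 (296), Rpl10a (289), Rpl31 (280) and Rpl4 (165). The lowest tested were Rps27l (4.84), Rps20 (5.38), Rps4l (7.54), Rpl22l1 (7.74) and Rpl7l1 (8.44). The value of Rps20 was divided by an annotated transcript of 3706 bases. Such levels also depend on how many reads could be placed: at the median, 55.5% of a gene's 50-base words occurred in another annotated gene's transcripts, 52 of the 85 had at least 50% such words, and 6.16% to 24.1% of all reads per library were set aside as not uniquely aligned. Across the 80 genes, log level and the share of such words had r = 0.23, given as a description. The exons of 13 genes overlap another gene, none of them called, and reads lost as ambiguous made up 0.942% to 2.85% in purified libraries and 8.61% to 12.8% in inputs.

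The paralogs, extra genes that resemble a main ribosomal protein gene, were low or at 0. Rpl10l and Rpl39l, which in mammals are known mainly from testis, were listed at 0 in all 26 libraries, as was Rpl26, a main ribosomal protein gene. A count of 0 allows up to 3 counts per library, for counting error only. Rpl3l, a muscle paralog of Rpl3, was at 0 in 19 libraries including all inputs and reached 58 counts (3.24 CPM) in saline withdrawal set A replicate 1. Rpl32l, a processed pseudogene in GENCODE whose symbol does not mark it as one, was at 0 in 19 libraries and at no more than 3 counts elsewhere. Rpl22l1, a paralog of Rpl22, was at 0.893 to 11.1 CPM in purified libraries and at 5.57, 5.07 and 14.8 CPM in inputs, and its log2 fold change was -0.93 ± 0.58 (SE, adjusted p = 0.320 by edgeR). Rps27l had 0.79 ± 0.96, Rps4l, a transcribed processed pseudogene in GENCODE, -0.52 ± 0.60, and Rpl7l1, a paralog of Rpl7, 1.10 ± 0.59, none of which passed.

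Among the immunopurified groups, no ribosomal protein mRNA differed between cocaine and saline or between withdrawal and no withdrawal in 7 comparisons from 1 fit of the 23 libraries with group and library set as terms (16908 genes, edgeR's quasi-likelihood test). The share of all genes called was 0% in each of the 7, so the count of 0 of 80 is the same as that of the background. DESeq2 called none of the 80 in any of them either, and 1 to 12 genes of all those tested. In data simulated for nonescalating against saline withdrawal, 8% of genes changed 2-fold and 66% of those changed 4-fold were recovered among 12372 genes. The other 6 comparisons were not simulated.

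Without withdrawal, nonescalating mice had ribosomal protein mRNAs with a median log2 fold change of 0.13 against saline mice, beside -0.002 for all genes, and 58 of the 80 were positive. Of the 80, only Rps7, a small-subunit protein that can also bind Mdm2, had an unadjusted p under 0.05, 1 of 80 against a background of 2.11%. Its levels were 13.5, 19.8 and 14.6 CPM in saline and 28.4, 56.1, 23.2 and 17.6 CPM in nonescalating libraries, overlapping at 1 library, with a log2 fold change of 0.97 ± 0.44 (SE, adjusted p = 1 by edgeR). Rps27 (0.72 ± 0.48) and Rpl36 (0.62 ± 0.49) came next among the positive genes. Rps24 (-0.19 ± 0.28) and Rps3a1 (-0.16 ± 0.31) were among the negative genes with the lowest p.

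Escalating mice, with 2 libraries, had a median of 0.09 against saline mice (51 of 80 positive, beside -0.02 for all genes), and none of the 80 had an unadjusted p under 0.05 against a background of 3.06%. Among the lowest p were those of Rpl7l1 (0.85 ± 0.60), Rpl39 (0.85 ± 0.64) and Rpl41 (0.62 ± 0.50) in the positive and of Rps4l (-0.80 ± 0.93) and Rpl17 (-0.32 ± 0.44) in the negative direction. Against nonescalating mice the median was -0.08 (35 of 80 positive, all genes -0.02), again with none of 80 under the unadjusted threshold beside a background of 3.3%. The 3 lowest p in each direction were those of Rps24 (0.54 ± 0.31), Rpl39 (0.71 ± 0.60) and Rpl27 (0.52 ± 0.49), and of Rps4l (-1.35 ± 0.92), Rps27 (-0.71 ± 0.55) and Rps7 (-0.53 ± 0.50). These 3 comparisons share libraries and are not independent. Rpl10a was at 222 and 222 CPM in the escalating libraries, inside the range of both other groups.

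After withdrawal, Rpl10a had the lowest p of the 80 between nonescalating and saline mice. It was at 62.5 and 125 CPM (set A) and 148, 150 and 107 CPM (set B) in saline withdrawal, and at 168, 278, 451 and 415 CPM (set A) and 164, 203, 140, 94.5 and 281 CPM (set B) in nonescalating withdrawal. The groups overlapped in set B and did not overlap in set A. There saline withdrawal had only replicates 1 and 2, with 70.7% and 52.7% of their reads outside genes. Without replicate 2, whose table resembles set B, only replicate 1 remains on that side. The share of all genes separated in this way is not given here. The log2 fold change of Rpl10a was 0.93 ± 0.34 (SE, adjusted p = 0.749 by edgeR). Drd2 stood in the same order, at 2011 ± 816 CPM (SD, n = 5) in saline withdrawal and 3687 ± 2118 CPM (SD, n = 9) in nonescalating withdrawal, and summed endothelial markers in the opposite order, at 1967 ± 1245 and 929 ± 1003 CPM. Rpl32 (0.74 ± 0.35) and Rps27l (-1.18 ± 0.53) were the other 2 with an unadjusted p under 0.05, 3 of 80 against a background of 5.21%, and none of the 3 was called by edgeR. Rps6 (0.51 ± 0.25) and Rps28 (-0.39 ± 0.38) were among those that followed. The median of the 80 was 0.16 (60 positive), beside 0.01 for all genes.

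**Figure D3:**
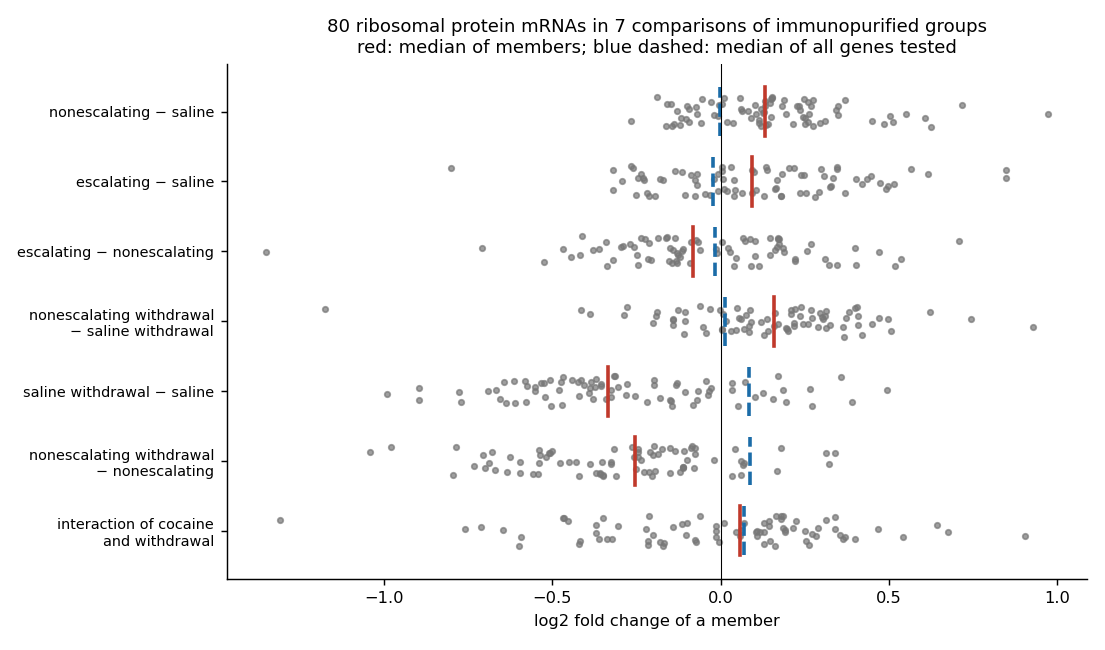
Log2 fold change of each of the 80 genes (grey points, spread vertically at random within a row) in 7 comparisons of immunopurified groups, with the median of the 80 (red) and of all genes tested (blue, dashed). The red bars lie at -0.33 and -0.26 in the comparisons of withdrawal with no withdrawal and between -0.08 and 0.16 in the other 5.

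Withdrawal libraries had lower medians than libraries without withdrawal in both treatments, without any gene passing the test. Saline withdrawal against saline gave a median of -0.33 with 15 of 80 positive, beside 0.08 for all genes, and none of 80 had an unadjusted p under 0.05 against a background of 5.23%. Rpl32 (-0.99 ± 0.49), Rpl29 (-0.90 ± 0.46) and Rpl30 (-0.66 ± 0.36) led the negative and Rpl7l1 (0.39 ± 0.54), Rps28 (0.36 ± 0.53) and Rps24 (0.18 ± 0.29) the positive genes. Nonescalating withdrawal against nonescalating gave -0.26 with 11 of 80 positive, beside 0.09 for all genes. There 2 of 80 had an unadjusted p under 0.05 against a background of 4.51%: Rps13 (-0.98 ± 0.39) and Rpl27a (-0.68 ± 0.30), each with an adjusted p of 0.926 by edgeR. Rpl37 (-0.79 ± 0.39), Rps24 (0.31 ± 0.25) and Rpl27 (0.34 ± 0.38) were among those that came next in the 2 directions. Cell-type markers moved in the same comparisons. In saline withdrawal against saline the median log2 fold change was 1.61 for endothelial markers (6 of 6 positive), 1.39 for microglial markers (5 of 5) and -0.63 for indirect-pathway markers (0 of 6 positive). In nonescalating withdrawal against nonescalating it was 0.43 (6 of 6 positive), 0.51 (4 of 5) and -0.14 (1 of 6). No marker was called, and their part in the lower ribosomal protein mRNAs was not tested. The interaction of cocaine and withdrawal had a median of 0.06 (43 positive, all genes 0.07), none of 80 with an unadjusted p under 0.05 against a background of 2.03%, and its lowest p at Rpl32 (0.90 ± 0.57), Rpl7a (0.64 ± 0.51) and Rpl10a (0.68 ± 0.54), and at Rps27l (-1.31 ± 0.93), Rps27 (-0.76 ± 0.59) and Rplp1 (-0.71 ± 0.60).

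These shifts were near the size of the spread between libraries and moved with single libraries. The mean log2 CPM of the 80 genes was 4.73 ± 0.34 (SD, n = 5) after saline withdrawal, 4.85 ± 0.48 (n = 9) after nonescalating withdrawal, 5.17 ± 0.22 (n = 3) for saline, 5.27 ± 0.12 (n = 2) for escalating and 5.30 ± 0.21 (n = 4) for nonescalating mice, and the SD between replicates, pooled over the groups by their degrees of freedom, was 0.375. The mean after saline withdrawal lay below that of saline by more than the SD of either group, and the 2 groups overlapped, at 4.19 to 5.13 and 5.03 to 5.42. Without saline withdrawal set A replicate 1, the library with the most reads outside genes, the saline withdrawal median became -0.08, and without saline replicate 3 it became -0.16. The nonescalating withdrawal median became -0.15 without set A replicate 1 of that group and -0.54 without its set A replicate 4. With the share of reads outside genes as a covariate both medians came to -0.07 and -0.06, and without the 5 libraries over 50% they were 0.19 and 0.01. After that removal every saline withdrawal library was of set B and every saline library of set A. The 0.19 therefore rests on a set term that only nonescalating withdrawal libraries inform. The median of nonescalating against saline withdrawal became 0.01 without saline withdrawal set A replicate 1, and 0.04 without nonescalating withdrawal set A replicate 4.

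**Figure D4:**
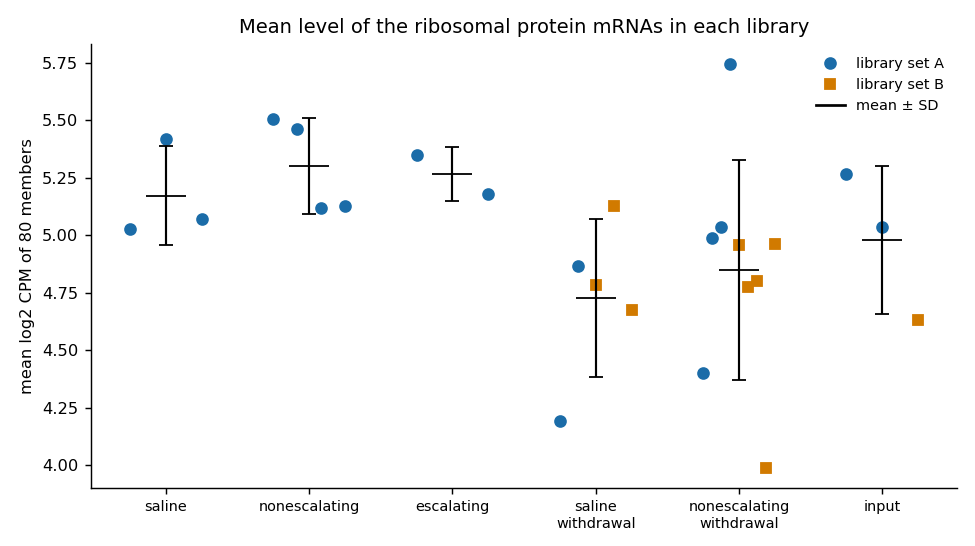
Mean log2 CPM of the 80 tested genes in each library, by group, with each group's mean ± SD; circles are library set A and squares set B. Group means lie between 4.73 and 5.30, and single libraries of nonescalating withdrawal run from 3.99 to 5.74.

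The pathway lists were read in the same 7 comparisons and no gene on them was called. In saline withdrawal against saline, the medians were -0.30 for the 40 translation factors and TOP mRNAs, -0.42 for the 30 assembly genes, -0.49 for the 76 mitochondrial ribosomal proteins and 0.02 for the 14 regulators. In nonescalating withdrawal against nonescalating they were -0.17, -0.22, -0.19 and 0.12. In nonescalating against saline withdrawal they were 0.28, 0.30, 0.31 and 0.13. In each of the 3, the lists of translation factors, assembly genes and mitochondrial ribosomal proteins had a median of the same sign as the ribosomal protein genes.

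The ribosomal protein mRNAs varied together from library to library. Over the 23 immunopurified libraries, a gene's log2 CPM correlated with the mean of the other 79 at a median r of 0.76, from -0.23 (Rps24) to 0.93 (Rpl29), with 78 of 80 positive, where the median of all genes tested was -0.06. The means of the large-subunit and small-subunit genes had r = 0.97. The mean also followed the mitochondrial ribosomal proteins (r = 0.89) and Drd2 (r = 0.72), and ran against summed endothelial markers (r = -0.60). All these values come from the same libraries and share their depth and scaling, so they are given as descriptions without a p.

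Libraries with many reads outside genes had low ribosomal protein mRNAs. The mean log2 CPM of the 80 and that share had r = -0.80 and rho = -0.70 over 23 libraries, r = -0.88 within set A (15 libraries) and -0.73 within set B (8 libraries), and r = -0.71 without the 2 farthest libraries. The coefficient was negative for 77 of the 80, lowest for Rpl6 (-0.85) and Rpl15 (-0.84), and positive for 3, among them Rps24 (0.38) and Rps28 (0.21). Both genes were also among the 5 that followed the mean of the others least. The share of all genes with a negative coefficient is not given here. The 3 inputs, at 27.3% to 31.6% of reads outside genes, had means of 5.035, 5.268 and 4.632.

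**Figure D5:**
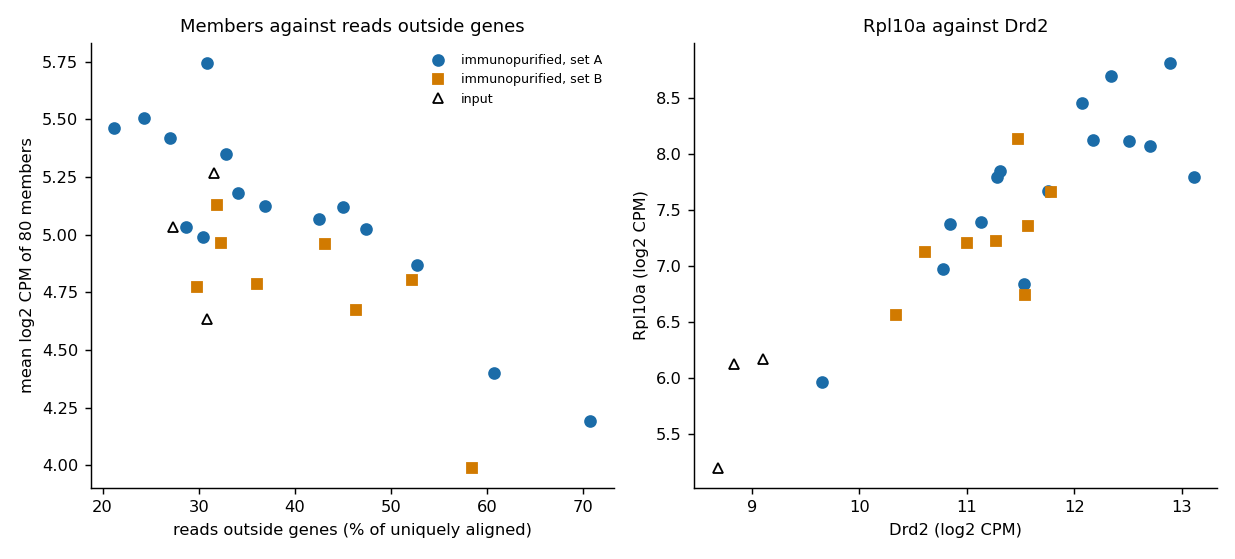
Left, mean log2 CPM of the 80 genes against the percentage of uniquely aligned reads outside genes; right, log2 CPM of Rpl10a against that of Drd2; each point is a library (circles set A, squares set B, open triangles inputs). Means in the left panel are 5.51 and 5.46 at 24.4% and 21.2% and 4.19 at 70.7%. The highest mean, 5.74, lies at 30.9% and the lowest, 3.99, at 58.4%. The right panel rises with r = 0.80 over the immunopurified libraries.

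The genes that kept least to the common level were 3 low-count genes beside main ribosomal protein genes. The SD of a gene's log2 CPM around the mean of the 80 was 0.40 at the median, lowest for Rps6 (0.24), and highest for Rps4l (0.96), Rpl22l1 (0.93), Rps27l (0.84), Rps28 (0.709), Rpl22 (0.655) and Rps14 (0.655). Rps27l, for example, rests on 4 to 47 counts per library. Rpl22 and Rpl22l1 were both in this group and both had small correlations with the mean of the other genes (0.21 and -0.09).

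Rpl10a and Drd2 rose and fell together across libraries. The part in this of the tagged copy, which the Drd2 promoter drives, was not tested. Across the 23 immunopurified libraries the log2 CPM of the pair had r = 0.80 (permutation p = 2e-05, adjusted over 4 relations 4e-05) and rho = 0.73 (permutation p = 0.00017). Within set A it was r = 0.82 (15 libraries, permutation p = 0.00023) and within set B r = 0.58 (8 libraries, exact permutation p = 0.13). Leaving out the 2 libraries with the most extreme Drd2 gave r = 0.79. Other ribosomal protein mRNAs also followed Drd2, so that Rpl10a ranked 2 of 80 after Rpl31 (r = 0.85). Taken relative to the mean of the 80, Rpl10a had r = 0.56 with Drd2 (permutation p = 0.00575, adjusted 0.00767), r = 0.62 in set A and 0.19 in set B (exact permutation p = 0.66), and ranked 9 of 80. Rpl10a also ran against the share of reads outside genes (r = -0.83, permutation p = 1e-05, the smallest these 100000 resamples can give, adjusted 4e-05; rho = -0.81), with -0.87 in set A and -0.76 in set B (exact permutation p = 0.0264). Relative to the mean of the 80 that coefficient was -0.53 (permutation p = 0.0103, rho = -0.58). The permutations shuffled libraries freely over the groups, and over both sets where all 23 were used. Rpl10a and Drd2 also share depth and scaling. These p therefore do not measure a link apart from groups, sets or scaling. Drd2 and reads outside genes were not separated from each other in these relations.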

How the data were processed

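The submitters' processing notes name STAR 2.0.0e and HTSeq as tools and mm10 as the genome build. The deposited values are raw counts per gene symbol in 26 tables, with no normalization. For annotation, strand setting and kit, no source used here gives a statement. Of the tables, 10 list 32531 genes and 16 list 32657. Shared symbols (31735) and pairs of older and current RefSeq symbols (242) gave 31977 genes, which held between 99.5% and 99.9% of the gene counts of a library. The entries that name no gene served only for shares of reads.

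Tests used edgeR 4.0.16 under R 4.3.3 (TMM, filterByExpr, quasi-likelihood F test, Benjamini-Hochberg adjustment over all genes, threshold 0.05). Condition or group and library set were terms. Immunopurified and input libraries were fitted with 10 residual degrees of freedom, the 23 immunopurified libraries with 17. Log2 CPM used a prior count of 2, and levels used TMM factors over all 26 libraries. Alternatives were DESeq2 1.42.0, limma 3.58.1 (voom with quality weights), other scalings and filters, a replicate block, a covariate and libraries left out. In simulated data, 1% of genes changed 2-fold and 34% of those changed 4-fold were recovered between immunopurified and input libraries (12404 genes).

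Replicates were checked: none of 56 pairs of libraries within a group was identical, with chi-square per degree of freedom from 12.7 to 284. The titles mark most of set A as copies of lower library numbers, a mark that no source used here explains. Saline withdrawal set A replicate 2 carries no such mark and was put in set A because its number falls among the copied numbers. Its table resembles those of set B, and placing it there was an alternative. Starts were taken from RefSeq (GRCm38.p6), and gene positions, transcript lengths and 50-base words from GENCODE M21 (GRCm38). Named genes are those called, the 3 lowest p per direction where fewer were called, 8 genes fixed by role, the paralogs, and the highest and lowest by level and spread. Membership follows gene names alone, but the gene family, the 8 genes by role and the lists were chosen with earlier results of these data known. A few genes that this rule names are not reported here.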

Additional observations from a re-analysis of the deposited data

Results flagged for a closer look

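Of 36 sets of 4 to 10 library values examined for an outlying library, 2 held one, and chance alone gives about 1 in 20. Both concern nonescalating withdrawal set A replicate 4, the library with the highest mean level of ribosomal protein mRNAs (5.74 log2 CPM). Rplp2, a stalk protein, stood there at 80.4 CPM, where the other 8 libraries of the group ran from 11.1 to 42.9 CPM. Rps15 stood there at 435.7 CPM, and the other 8 ran from 39.3 to 142.6 CPM. That library was not part of the comparison of purified with input RNA.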

How the results depend on the processing

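Between immunopurified and input libraries, 4 of 80 genes were called, against 14 with DESeq2 (8 higher and 6 lower), 8 with the share of reads outside genes as a covariate, 0 within set A alone and 0 with a replicate block. Over all genes the counts were 2950, 1796, 242 and 46, beside 1152. Rpl10a had 1.70 (adjusted p = 0.0631 by edgeR) in set A alone and 1.59 (adjusted p = 0.109) with the replicate block. The other 8 alternatives called 3 to 6. Leaving out 1 library at a time gave 2 to 6 calls, and Rpl10a then had 1.66 to 1.84. For these 8 alternatives and the fits without 1 library, counts over all genes are not given here. Their calls are therefore not set against a background. Same-number libraries were not paired by the data (25 pairs with a median residual correlation of -0.11 against -0.02 in 78 others), and the block changed no call among the immunopurified groups.

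None of the 80 was called in any of the 7 comparisons under any alternative. The medians moved by more than the pooled SD between replicates (0.375) in 3 cases: in set A alone, 0.69 for nonescalating against saline withdrawal and 0.47 for the interaction, and, without the 5 libraries over 50% of reads outside genes, 0.19 for saline withdrawal against saline. In that last case the groups came from different library sets, as said above. The same comparison had -0.69 in set A alone. Scaling to the members' summed counts, which centres them near 0 by construction, moved its median of all genes to 0.54. With saline withdrawal set A replicate 2 placed in set B, 6 of the 80 genes were called between immunopurified and input libraries. The count over all genes in that fit is not given here. With that placement the medians were 0.10 for nonescalating against saline withdrawal, -0.27 for saline withdrawal against saline and -0.28 for nonescalating withdrawal against nonescalating. Leaving out 1 library at a time, the medians ran from 0.04 to 0.26 (nonescalating against saline), -0.04 to 0.20 (escalating against saline), -0.14 to 0.04 (escalating against nonescalating), 0.01 to 0.31 (nonescalating against saline withdrawal), -0.50 to -0.08 (saline withdrawal against saline), -0.54 to -0.15 (nonescalating withdrawal against nonescalating), -0.10 to 0.19 (interaction) and 0.06 to 0.18 (immunopurified against input). The causes were not tested. Depth limits the low genes most: a tested gene had as few as 2 counts in a library.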
